A study of Mus musculus with 2 samples.

Results

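Gamma delta T cells and natural killer (NK) cells of the mouse tendon injury site were taken from 2 single-cell RNA libraries, 1 from irradiated and 1 from control mice. Kept barcodes had 500 or more genes, 1000 or more unique molecules (UMIs) and no more than 10% mitochondrial UMIs. A gamma delta T cell had at least 2 UMIs of the CD3 genes Cd3e, Cd3d and Cd3g together and at least 1 UMI of Trdc, the constant region of the T cell receptor delta chain. An NK cell had at most 1 CD3 UMI and at least 2 UMIs of Ncr1 and Klrb1c, which encode the NK receptors NKp46 and NK1.1. Barcodes with 50 or more UMIs per 10000 of the macrophage and neutrophil genes C1qa, C1qb, S100a8 and S100a9 were left out. These rules gave 118 of 7190 kept irradiated barcodes (17 gamma delta and 101 NK) and 55 of 9240 kept control barcodes (26 gamma delta and 29 NK), 173 of 16430 in all. The 2 libraries shared 23 kept barcode sequences, and no member was among them.

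All mice were male C57BL/6, aged 8 to 10 weeks, in which the left Achilles tendon was cut and 30% of the body surface, on the back, was burned, a model of bone formation in soft tissue (heterotopic ossification). The irradiated mice also received 7 Gy of X-rays in 1 dose aimed at the injury site, and the control mice received no radiation. Unsorted cells were taken on day 7 after injury, and the comparison asks what radiotherapy changes there. The labels do not tell how many mice were pooled or settle on which day after surgery this library's mice were irradiated. The libraries kept 86.6% of 8302 irradiated and 81.3% of 11369 control barcodes, 6.13% and 14.9% were over the mitochondrial limit, and kept barcodes had a median of 10197.5 and 14017 UMIs. With 1 library per group, treatment and library cannot be told apart and no test was possible. Intervals are 95% and cover counting error only, and sequenced UMIs of 1 cell are not independent samples of the animals.

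Gamma delta T cells carry a T cell receptor built from gamma and delta chains and are common in skin and other barrier tissues. In the mouse, one kind is set up to make interleukin-17, under the receptor for interleukin-23, and another lives in the epidermis, where it uses the receptor NKG2D, the chemokine Xcl1 and growth factors such as amphiregulin. NK cells lack a rearranged antigen receptor. They read class I MHC through the Ly49 (Klra) and CD94 family, kill with perforin and granzymes, and release interferon gamma and chemokines. Type I interferon is a textbook activator of NK cells, and it switches on a broad set of antiviral genes through promoter elements that bind interferon-activated factors.

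NK cells took a larger share of the irradiated library, and for gamma delta T cells no difference in share could be resolved. NK cells made up 1.40% of kept barcodes in the irradiated library (1.15 to 1.70%, Clopper-Pearson) and 0.314% in the control library (0.210 to 0.450%), a ratio of 4.48 (2.94 to 7.02). Gamma delta T cells made up 0.236% in the irradiated library (0.138 to 0.378%) and 0.281% in the control library (0.184 to 0.412%). Their ratio of 0.840 had an interval of 0.428 to 1.61, which includes equality at this number of cells. There were 5.94 NK cells per gamma delta cell in the irradiated library and 1.12 in the control library, and the odds differed by 5.33 times (2.39 to 11.9).

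The other T cells give a point of comparison. Alpha beta type T cells, defined by at least 2 CD3 UMIs, no Trdc UMI and at least 2 UMIs of the alpha and beta constant regions, numbered 118 in the irradiated and 61 in the control library (1.64% and 0.660%, ratio 2.49, 1.81 to 3.44). Per alpha beta type T cell there were 0.856 NK cells in the irradiated library and 0.475 in the control library (ratio 1.80, 1.05 to 3.14). For gamma delta cells the same quotients were 0.144 and 0.426 (ratio 0.338, 0.160 to 0.707). Of gamma delta, NK and alpha beta type cells together, gamma delta cells were 7.20% in the irradiated library and 22.4% in the control library. Shares of all barcodes move with the rest of the tissue: collagen-rich fibroblast type cells were 570 of 7190 irradiated and 2309 of 9240 control barcodes. Among barcodes with a UMI of Ptprc, the leukocyte gene CD45, NK cells were 2.26% in the irradiated and 0.811% in the control library (ratio 2.78, 1.82 to 4.36).

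**Figure D1:**
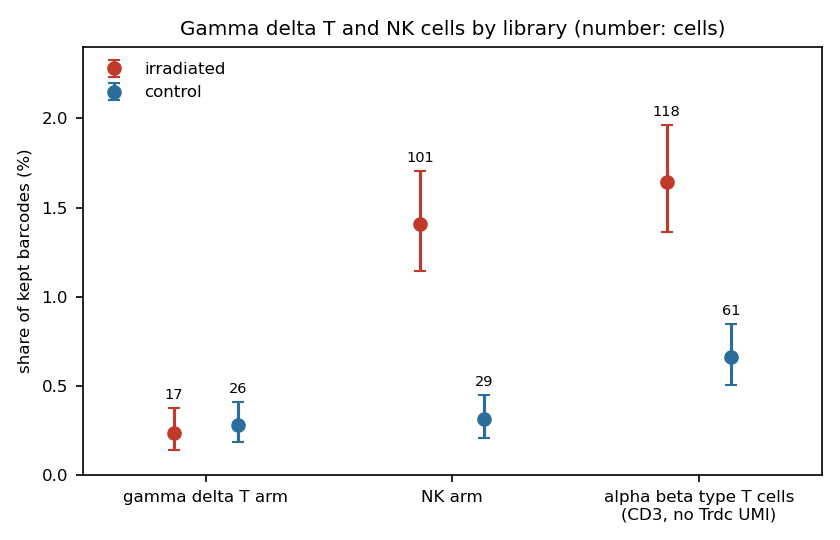
Share of kept barcodes (%) for gamma delta T cells, NK cells and alpha beta type T cells in the irradiated (red) and control (blue) library, with exact 95% intervals for counting error and the number of cells above each. The NK shares of 1.40% and 0.314% lie apart, while the gamma delta intervals overlap.

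The genes of the rule describe how firmly each kind was called. Of the gamma delta cells, 11 of 17 irradiated and 18 of 26 control cells had 5 or more Trdc UMIs, and 2 and 5 cells sat at the limit of 1 UMI. Just outside, 0 irradiated and 4 control barcodes had Trdc but 1 CD3 UMI. Gamma constant regions, which the rule did not use, were seen in 14 of 17 irradiated and 20 of 26 control cells. Trdv4, a delta variable segment, was seen in 9 and 18 cells. Trac, the alpha constant region, was seen in 1 irradiated and 7 control cells. UMIs of the beta constant regions were frequent, and 12 irradiated and 17 control cells had at least 2 UMIs over Trac, Trbc1 and Trbc2. Of the gamma delta cells, 3 irradiated and 0 control cells had 2 or more UMIs of Ncr1 and Klrb1c. One irradiated cell of 8329 UMIs met the gamma delta rule with 1 Trdc UMI, and it held 5 Ncr1, 4 Klrb1c, 20 Gzma and 93 Xcl1 UMIs. Another, of 45257 UMIs, held 2 Trdc, 3 Klrb1c and 3 Tbx21 UMIs and no Ncr1 UMI.

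NK cells were called from 2 receptors that mostly occurred together: 79 of 101 irradiated and 23 of 29 control NK cells had UMIs of both Ncr1 and Klrb1c. At the limit of 2 receptor UMIs stood 20 irradiated and 8 control cells, and just outside it, with 1 receptor UMI, 21 and 24 barcodes. Defining NK genes outside the rule were present, though not in every cell. Tbx21, the regulator T-bet, was seen in 91 irradiated and 28 control NK cells, and Eomes, the second T-box factor of conventional NK cells, in 67 and 15. Fcer1g, a signalling adaptor, was seen in 99 of 101 and 29 of 29. At least 1 Ly49 family UMI was present in 80 of 101 irradiated and 20 of 29 control NK cells. A set of Eomes, Gzma, Klra8, Klre1 and Prf1 had 2 or more UMIs in 91 irradiated and 25 control NK cells. Only an innate lymphoid set of Il7r, Cxcr6, Itga1 and Tmem176a reached this in 5 irradiated and 4 control cells. These were 4.95% (1.63 to 11.2%) and 13.8% (3.89 to 31.7%), and whether they are NK cells was not tested. Tcrg-C1, Tcrg-C2, Il17a, Il23r and Blk had no UMI in any NK cell of either library, which for Il17a allows shares of up to 3.59% of irradiated and 11.9% of control NK cells with a UMI (exact upper bounds). Trdc itself had at least 1 UMI in 31 irradiated and 5 control NK cells, without a gamma constant UMI of those 2 genes, and Trbc1 in 88 and 23. Other receptor chain genes were also seen in some NK cells: Trdv4 in 19 irradiated and 1 control, Tcrg-C4 in 4 and 4, and Trac in 16 and 4.

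Gamma delta cells had a median of 8329 UMIs in the irradiated and 5091 in the control library, and NK cells 8146 and 5739. Some barcodes also carried RNA of other cells. Those with at least 50 UMIs per 10000 from lists of fibroblast, keratinocyte, endothelial, macrophage and dendritic genes are called mixed here, a limit chosen after the values were seen. Among gamma delta cells 3 of 17 irradiated and 8 of 26 control barcodes were mixed, and among NK cells 8 of 101 and 8 of 29. Leaving them out took the summed UMIs of NK cells from 1109253 to 844794 in the irradiated and from 295756 to 121541 in the control library. For gamma delta cells the sums went from 221784 to 134137 and from 226413 to 101242. Ratios over all cells therefore rest on mixed barcodes more in the control than in the irradiated library. All 10 fibroblast genes had UMIs in the NK cells of both libraries, and the sum of the list ran over single cells between 0 and 28.0 UMIs per 10000 in the irradiated library (median 1.23) and between 0 and 581 in the control library (median 6.70). Keratinocyte genes in NK cells had medians of 1.49 and 9.71, and in gamma delta cells 1.99 and 7.31. Without mixed barcodes the NK share ratio was 5.69 (3.52 to 9.62) and the gamma delta ratio 1.00 (0.460 to 2.13). Values below are therefore also given without mixed barcodes where these changed the result.

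Within each library, Il17a and high Fcer1g were seen in different gamma delta cells. Il17a, the cytokine interleukin-17A, was seen in 5 of 17 irradiated and 8 of 26 control cells. Fcer1g stood at 3 or more UMIs, a limit chosen after the values were seen, in 10 irradiated and 14 control cells, and no cell of either library met both conditions. Another 2 irradiated and 4 control cells met neither. The broader programs were not as separate: 4 of 17 irradiated and 5 of 26 control cells had 2 or more UMIs of both an interleukin-17 set with Il17a, Il23r and Cd163l1 and an epidermal set of Itgae, Xcl1, Klrk1 and Fcer1g. The Il17a cells were also shallower, with a median of 3426 UMIs in the irradiated and 2999 in the control library, against 11448.5 and 8295.5 in the Fcer1g cells, so low genes are more easily missed in them.

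Other genes of the interleukin-17 type program were seen more in the Il17a cells. Blk, a Src family kinase needed for this lineage, had UMIs in 5 of 5 irradiated and 8 of 8 control Il17a cells, against 0 of 10 and 1 of 14 Fcer1g cells. Il23r, the interleukin-23 receptor, was seen in 2 of 5 irradiated and 7 of 8 control Il17a cells, against 0 of 10 and 1 of 14 Fcer1g cells. Cd163l1, a scavenger receptor of this lineage (SCART1), was seen in 3 irradiated and 7 control Il17a cells and in 1 and 3 Fcer1g cells, and Il7r, the interleukin-7 receptor, in 4 and 5 Il17a cells and in 1 and 2 Fcer1g cells. The chemokine receptor Cxcr6 was seen in both kinds, in 5 irradiated and 6 control Il17a cells and in 7 and 6 Fcer1g cells.

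Of the epidermal genes, Xcl1 had UMIs in 9 of 10 irradiated and 12 of 14 control Fcer1g cells, and in 0 of 5 and 0 of 8 Il17a cells. The others were shared to some degree. Klrk1, which encodes NKG2D, was seen in 9 irradiated and 11 control Fcer1g cells and in 2 and 4 Il17a cells, and Itgae, the CD103 integrin that binds E-cadherin on epithelium, in 7 and 9 Fcer1g cells and in 2 and 3 Il17a cells. Areg, the growth factor amphiregulin, was seen in 6 irradiated and 8 control Fcer1g cells and in 1 and 2 Il17a cells. The 10 irradiated Fcer1g cells include the cell with Ncr1 and Gzma described above and the cell of 45257 UMIs. The epidermal set is not particular to gamma delta cells. It had 2 or more UMIs in 98 of 101 irradiated and 29 of 29 control NK cells, against 13 of 17 and 19 of 26 gamma delta cells. The delta segment Trdv4, used by both kinds of cell in the mouse, was seen in 6 and 10 Fcer1g cells and in 3 and 6 Il17a cells. In fibroblast type cells, which should lack Il17a and Xcl1 and were deeper (median 22982 UMIs irradiated, 25264 control), Il17a had UMIs in 0 of 570 irradiated and 4 of 2309 control cells, and Xcl1 in 4 and 4.

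**Figure D2:**
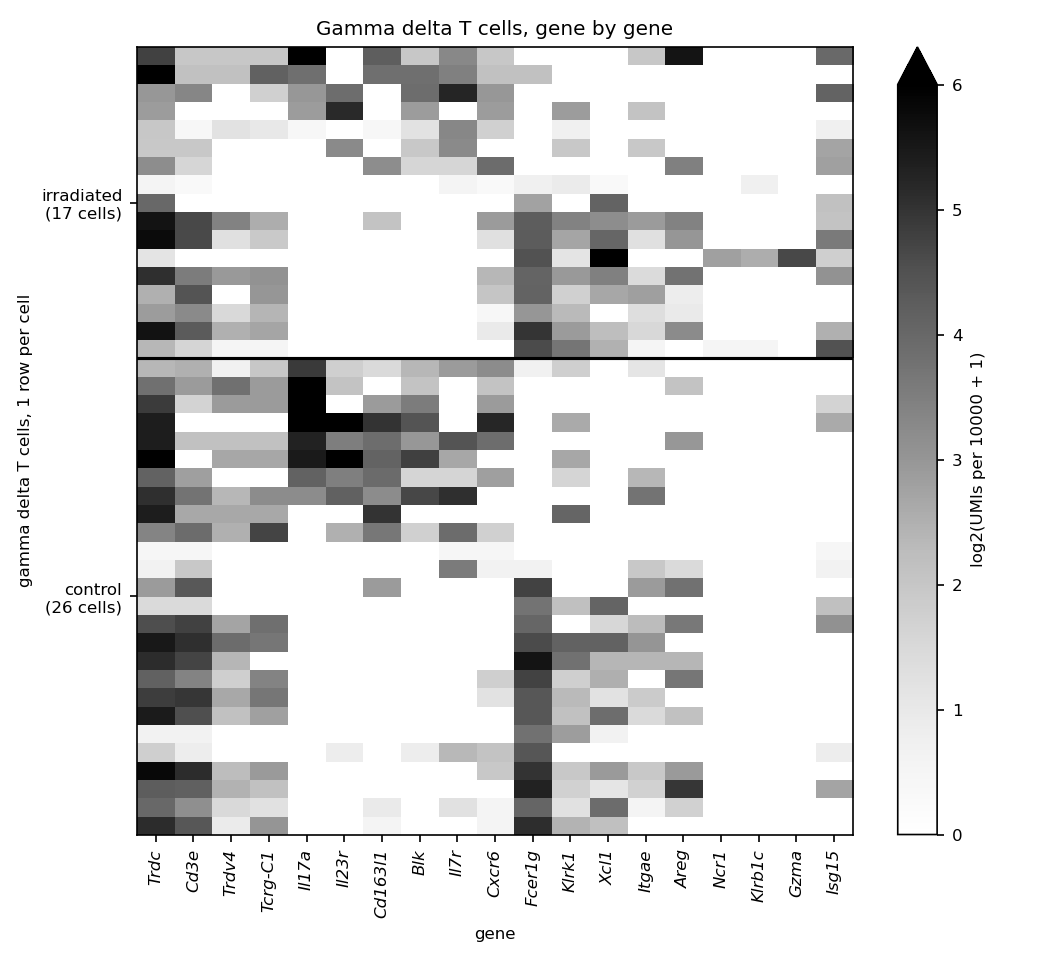
Each row is 1 gamma delta T cell, irradiated cells above and control cells below the line, and shading gives log2(UMIs per 10000 + 1), with a pseudocount of 1 and saturated at 6. Within each library the 5 irradiated and 8 control Il17a cells are on top, and the 10 and 14 Fcer1g cells are at the bottom. The Fcer1g cells were grouped by Fcer1g alone, and Klrk1, Xcl1 and Itgae were each seen in most but not all of them.

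The share of Il17a cells was close in both libraries, and the amount of Il17a was not. Irradiated Il17a cells held 26, 4, 3, 2 and 1 UMIs of Il17a, and control Il17a cells held 49, 35, 32, 23, 11, 8, 8 and 2. The medians were 3 and 17 UMIs per cell, and the ranges overlapped. Summed over all gamma delta cells, Il17a stood at 162 CPM (36 UMIs) in the irradiated and 742 CPM (168 UMIs) in the control library, a log2 ratio of -2.19 (-2.75 to -1.67), with 72.2% of the irradiated UMIs in 1 cell. Without mixed barcodes it was -1.58 (-2.20 to -0.99). Thinned to 2000 UMIs a cell, Il17a was seen in 4 of 17 irradiated and 6 of 22 control cells, with 0 and 4 shallower cells left out, against 29.4% and 30.8% unthinned.

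A gene is called higher or lower here when it had at least 20 UMIs over both libraries, a ratio of at least 2-fold in CPM of the summed UMIs, and an interval that left out equality. This is a rule of size, not a test. By this rule 9.63% of 4374 measured genes were higher and 6.86% lower in irradiated gamma delta cells, and without mixed barcodes 8.96% and 8.33% of 2521. In that second set 1 irradiated cell of 45257 UMIs, with 2 Trdc and 3 Klrb1c UMIs, held 33.7% of the irradiated UMIs. This cell weighs on every gamma delta ratio given without mixed barcodes, and its part was not tested. Of 17 measured genes of the interleukin-17 list, 3 were lower and 1 higher, with a median log2 ratio of -0.67 against -0.06 over all genes. Il23r stood at 90.2 CPM in irradiated and 230 CPM in control cells (-1.35, -2.17 to -0.58), and Cd163l1 at 76.6 and 190 CPM (-1.31, -2.21 to -0.47). Blk, at -0.77 (-1.66 to 0.09), and the transcription factor Maf, at 0.46 (-0.21 to 1.13), were neither. The higher gene was Aqp3, a water channel that is abundant in keratinocytes, with 79.7% of its irradiated UMIs in 1 cell, and it dropped under 20 UMIs without mixed barcodes. Keratinocyte genes summed to 3034 CPM in irradiated and 1497 CPM in control gamma delta cells, and their part in this was not tested. Without mixed barcodes 5 of 15 genes of the list were lower and 0 higher, with a median of -0.41.

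Of 18 measured genes of the epidermal list 1 was higher and 1 lower, against 9.63% and 6.86% over all measured genes. The median of the list was -0.12. Fcer1g stood at 920 CPM in irradiated and 1391 CPM in control cells (-0.60, -0.86 to -0.34), and Areg at 271 and 278 CPM (-0.04, -0.58 to 0.49). Itgae was at -0.13 (-0.95 to 0.69) and Klrk1 at 0.47 (-0.03 to 0.98). Klrc1, the inhibitory receptor NKG2A, was higher, at 135 and 48.6 CPM (1.48, 0.44 to 2.62) in 7 irradiated and 5 control cells. Xcl1 stood at 712 and 375 CPM (0.92, 0.53 to 1.32), but 58.9% of the irradiated UMIs were in the cell with Ncr1 and Gzma described above. Gzmb, granzyme B, was lower, at 49.6 and 115 CPM (-1.21, -2.38 to -0.14), with more than 50% of its UMIs in 1 cell in each library. Ifng, the interferon gamma gene, had 3 UMIs in 1 irradiated and 1 UMI in 1 control gamma delta cell, Csf2 1 and 0 UMIs, and Tnf 18 and 21 UMIs in 10 and 15 cells.

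Among receptors and regulators, Serpinb9, an inhibitor of granzyme B, was higher in irradiated gamma delta cells (194 against 30.9 CPM in control cells, 2.65, 1.48 to 4.05, in 10 and 5 cells). Cd244a, the receptor 2B4, was lower (45.1 against 146 CPM, -1.69, -2.88 to -0.64), as was Tnfrsf9, the costimulator 4-1BB (207 against 451 CPM, -1.12, -1.65 to -0.60). Zeb2, a transcription factor of terminal effector cells, was higher (1.57, 0.98 to 2.20), though its UMIs came from 3 irradiated cells. The CD3 and signalling list had 0 higher and 2 lower genes of 13 measured (median -0.68), against 6.86% of all measured genes lower. Cd3g stood at 1506 and 3207 CPM (-1.09, -1.28 to -0.90). Without mixed barcodes 6 of these 13 were lower, against 8.33% of all measured genes. The rule chose the cells partly by Cd3e, Cd3d and Cd3g, so these counts are a description only. The genes with the widest gaps over the whole arm were mostly those of other cells. Krt15 and Cxcl14, keratinocyte and stromal genes, came from 2 irradiated cells each, and 88.3% of the control UMIs of Col3a1 and 94.2% of those of Col1a1, both collagens, were in 1 cell. What mixed barcodes add to the other ratios was not tested beyond leaving them out.

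Several cytotoxic genes were higher in NK cells of the irradiated library. Gzmb stood at 652 CPM in irradiated NK cells (723 UMIs in 74 of 101 cells) and 237 CPM in control NK cells (70 UMIs in 15 of 29 cells), a log2 ratio of 1.46 (1.11 to 1.84), and without mixed barcodes at 1.22 (0.76 to 1.72). Prf1, which encodes the pore protein perforin, stood at 213 and 64.2 CPM (1.73, 1.05 to 2.49) in 65 and 14 cells. Without mixed barcodes its ratio was 0.92 (0.21 to 1.73), under the 2-fold limit. Gzma, granzyme A, was the most abundant effector in both libraries at 3126 and 1630 CPM (0.94, 0.80 to 1.08), and without mixed barcodes its ratio was 0.41 (0.25 to 0.58). Over single cells, Gzma had a median of 27.9 UMIs per 10000 in irradiated and 13.9 in control NK cells, with overlapping ranges of 0 to 157 and 0 to 150.

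The 20 cytotoxic genes had 15 measured members, of which 4 were higher and 0 lower (median 0.61), against 6.16% of 7786 measured genes higher and 6.83% lower and a median of 0.09 over all genes in NK cells. Without mixed barcodes 2 of 14 were higher (median 0.24), against 2.97% of 5888 genes higher and 2.34% lower. Those 2 were Gzmb and Gzmc, a granzyme of activated killer cells, which stood at 124 and 30.4 CPM (2.02, 1.05 to 3.18) with 57.7% of the irradiated UMIs in 1 cell. After thinning to 2000 UMIs a cell, Gzmb was seen in 46 of 98 irradiated and 10 of 29 control NK cells (46.9% and 34.5%, with 3 and 0 cells left out, unthinned 73.3% and 51.7%). Gzma was then seen in 84.7% and 65.5%, and Prf1 in 32.7% and 20.7%. Without mixed barcodes the thinned shares were 51.6% and 38.1% for Gzmb, 86.8% and 66.7% for Gzma, and 33.0% and 33.3% for Prf1. The intervals of all these thinned ratios included equality. In fibroblast type cells the thinned share with Gzmb was 0 of 550 and 13 of 2257.

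Cytokine genes and the most abundant chemokines of NK cells did not pass the size rule. Ifng stood at 97.4 CPM in irradiated and 77.8 CPM in control NK cells (0.32, -0.34 to 1.04), and was seen in 40 of 101 and 7 of 29 cells. Thinned, the shares with Ifng were 16.3% and 20.7%. Over all NK cells, mixed barcodes included, Xcl1 stood at 762 and 629 CPM (0.28, 0.05 to 0.51) and Tnf at 37.9 and 27.0 CPM (0.49, -0.62 to 1.79). Thinned and without mixed barcodes, Xcl1 was seen in 49.5% of irradiated and 42.9% of control NK cells, and the interval of their ratio included equality. Csf2, the growth factor GM-CSF, had 24 and 3 UMIs in 3 and 1 cells, and Areg 20 and 11 UMIs in 7 and 2 cells. Ccl5 was the most abundant chemokine, at 1521 and 1380 CPM (0.14, -0.02 to 0.30), beside Ccl4 at 433 and 396 CPM (0.13, -0.16 to 0.43).

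A few chemokines were higher in irradiated NK cells. Cxcl10, an interferon-induced chemokine that attracts cells with the receptor CXCR3, had 118 UMIs in 20 irradiated cells and 1 UMI in 1 control cell, or 106 and 3.38 CPM (4.98, 2.47 to 10.29). Ccl3 stood at 180 and 16.9 CPM (3.41, 2.17 to 5.05), with 61.5% of the irradiated UMIs in 1 cell. Cxcl2, a neutrophil chemokine, had 908 and 29 UMIs (3.06, 2.53 to 3.65), with 70.0% of the irradiated UMIs in 1 cell and 69.0% of the control UMIs in 1 cell. Without mixed barcodes Cxcl2 had 784 and 2 UMIs (5.82, 3.96 to 8.87), 81.1% of the irradiated ones in 1 cell, and Cxcl10 had 88 and 0 UMIs. Of 9 measured chemokines 4 were higher and 0 lower, against 6.16% of all measured genes higher and 6.83% lower. Ccl3 and Cxcl2, each led by 1 irradiated cell, were among the higher ones. Without mixed barcodes 4 of 7 were higher, against 2.97% of all measured genes.

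Of 28 measured genes of the NK identity list 3 were higher and 0 lower, against 6.16% and 6.83% over all genes, with a median of 0.48. Without mixed barcodes 1 was higher and 1 lower, against 2.97% and 2.34%, with a median of 0.09. Eomes stood at 161 CPM in irradiated and 118 CPM in control NK cells (0.45, -0.08 to 1.01), Tbx21 at 479 and 379 CPM (0.34, 0.04 to 0.65) and Klrk1 at 486 and 399 CPM (0.28, -0.01 to 0.58). Klra8, the activating receptor Ly49H, was at 0.88 (0.48 to 1.30) with all NK cells and 0.26 (-0.18 to 0.72) without mixed barcodes. Klra4, the related receptor Ly49D, was at 0.53 (0.14 to 0.94) and -0.09 (-0.52 to 0.38). Il2rb, the chain shared by the receptors for interleukins 2 and 15, stood at 851 and 609 CPM (0.48, 0.25 to 0.72). The values of Eomes, Tbx21, Klrk1 and Il2rb are over all NK cells, mixed barcodes included.

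Maturation markers were sparse. Cd27, kept by less mature NK cells, was seen without Itgam in 50 of 101 irradiated and 10 of 29 control cells (49.5%, 39.4 to 59.6%, and 34.5%, 17.9 to 54.3%). Itgam, the CD11b integrin gained in maturation, was seen without Cd27 in 12 and 5 cells, both in 11 and 5, and neither in 28 and 9. Thinned to 2000 UMIs, Cd27 was seen in 20.4% of irradiated and 27.6% of control NK cells, and without mixed barcodes in 20 of 91 and 4 of 21, so no order was resolved at equal depth. Itga1, an integrin of tissue-resident innate lymphoid cells, was seen together with Eomes in 16 irradiated and 2 control cells and without it in 8 and 4.

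Single receptor genes did pass the size rule in NK cells. Ctla4, an inhibitory receptor best known on T cells, had 51 UMIs in 31 irradiated cells and 1 UMI in 1 control cell (46.0 and 3.38 CPM, 3.77, 1.22 to 9.10), and 47 and 1 UMIs without mixed barcodes (2.76, 0.21 to 8.09). Cd7, a surface protein of T and NK cells, stood at 144 and 54.1 CPM (1.41, 0.67 to 2.26), and at 1.35 without mixed barcodes. Tnfrsf9 stood at 282 and 125 CPM (1.17, 0.68 to 1.71), and at 0.48 (-0.09 to 1.09) without mixed barcodes. Rora, a nuclear receptor that supports innate lymphoid cells, was lower, at 193 and 473 CPM (-1.29, -1.61 to -0.98), and at -1.81 without mixed barcodes. Cd244a stood at -0.81 (-1.39 to -0.21), and passed the rule at -1.35 (-2.01 to -0.64) without mixed barcodes. Cxcr6 was lower (9.92 and 98.0 CPM, -3.31, -4.46 to -2.26), but was seen in 6 irradiated and 2 control cells, 1 of which held 69.0% of the control UMIs.

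Group 2 innate lymphoid cells use Rora and Gata3 and make interleukins 5 and 13. Their gene list summed to 344 CPM in irradiated and 768 CPM in control NK cells. Of the 5 measured genes of this list 2 were lower, against 6.83% of all measured genes. Over single cells its median was 2.16 UMIs per 10000 (0 to 35.1) in irradiated and 3.31 (0 to 46.4) in control NK cells. The defining cytokines Il5 and Il13 had no UMI in either library, and Il1rl1, the receptor of interleukin-33, had 0 and 28 UMIs, those 28 all in 1 mixed control cell. Gata3 stood at -0.28 (-0.82 to 0.28). The part of such cells, or of other innate lymphoid cells, in the ratio of Rora was not tested.

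Other genes stood apart in NK cells without mixed barcodes, and some of the widest ratios were of genes typical of other cells. Cxcl3 and Cxcl1, neutrophil chemokines, had 172 and 133 UMIs in irradiated cells, 93.0% and 95.5% of them in 1 cell, against 0 and 1 UMI in control cells. Spp1, the macrophage product osteopontin, had 437 UMIs in 46 irradiated and 10 UMIs in 5 control cells (2.65, 1.76 to 3.72), and Cd14, a monocyte receptor, 77 UMIs in 9 irradiated and 0 in control cells. The neutrophil list summed to 165 CPM in irradiated and 65.8 CPM in control cells, the macrophage and monocyte list to 212 and 165 CPM, and their part was not tested. On the lower side stood Col3a1, with 25 UMIs in 18 irradiated and 26 UMIs in 14 control cells (-2.85), and the keratin Krt14 (-2.21, -2.89 to -1.52).

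Genes of leukocytes themselves were also among the widest ratios. Plac8, a small cysteine-rich protein of leukocytes, had 931 UMIs in 53 of 93 irradiated and 27 UMIs in 6 of 21 control cells (2.31, 1.76 to 2.92). Ly6a, the interferon-inducible surface protein Sca-1, had 172 UMIs in 44 irradiated and 2 UMIs in 2 control cells (3.63, 1.75 to 6.69). Fabp5, a fatty acid binding protein also made by keratinocytes, was lower, with 85 UMIs in 46 irradiated and 48 UMIs in 21 control cells (-1.97, -2.50 to -1.43). The inducible heat shock genes Hspa1a and Hspa1b were lower both with all cells (-1.75, -2.31 to -1.19, and -1.69, -2.23 to -1.15) and without mixed barcodes (-2.60 and -3.88). Their UMIs lay in 10 control cells each, of which 4 and 3 were not mixed. Without mixed barcodes 1 cell held 78.6% of the 14 control UMIs of Hspa1a. For Hspa1b 1 cell held 68.4% of the 19 control UMIs. Of the 16 irradiated UMIs of Hspa1a, 68.75% were in 1 cell.

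**Figure D3:**
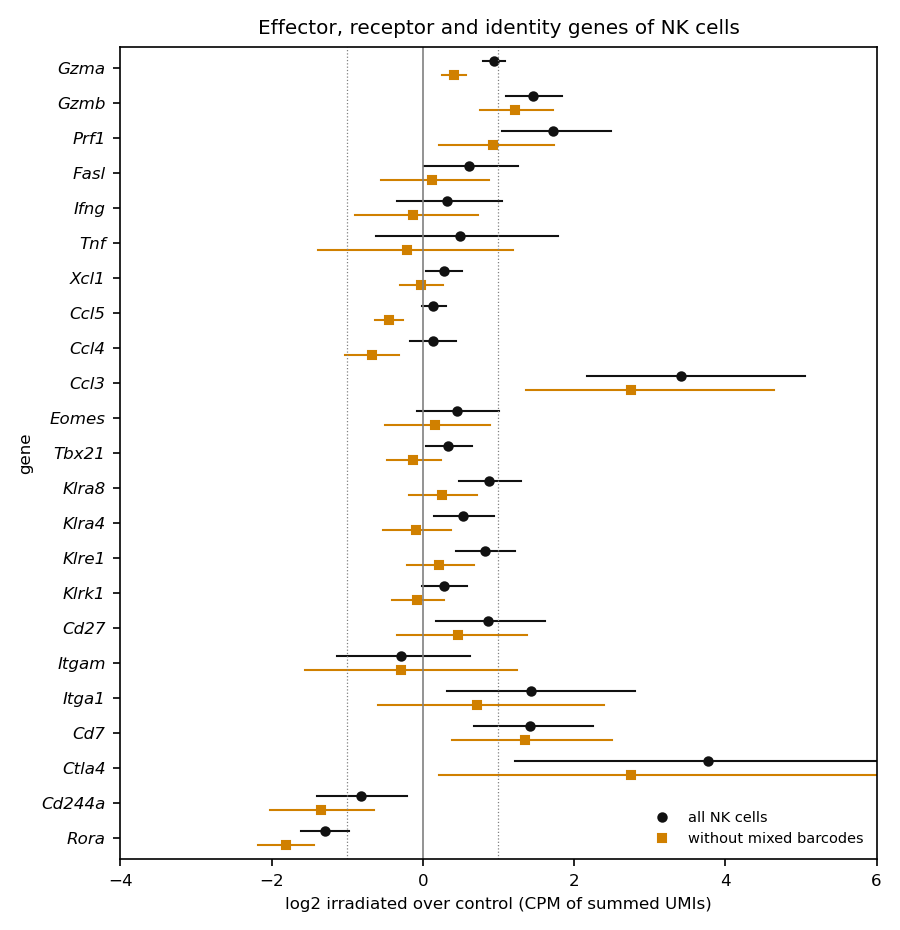
Log2 ratio of irradiated over control CPM for 23 genes of NK cells, with counting intervals, for all 101 irradiated and 29 control NK cells (black circles) and for the 93 and 21 without mixed barcodes (orange squares). Dotted lines mark 2-fold, and the upper ends for Ctla4 run past the axis. Gzmb, Ccl3, Cd7, Ctla4 and Rora pass the size rule in both sets, Prf1 is under 2-fold without mixed barcodes, and Gzma is under 2-fold in both.

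Interferon-stimulated genes were the clearest group in NK cells. Of 48 measured genes 24 were higher and 0 lower in irradiated NK cells, with a median log2 ratio of 1.24, and without mixed barcodes 18 of 47 were higher and 0 lower, with a median of 1.33. The background was 6.16% higher over all measured genes, and 2.97% without mixed barcodes. Over single cells the summed list had a median of 26.1 UMIs per 10000 in irradiated NK cells (range 2.41 to 336) and 11.9 in control NK cells (range 3.76 to 62.8). The ranges overlapped, but 92 of 101 irradiated NK cells lay above the control median.

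Effectors, sensors and regulators of the antiviral response were among them. Bst2, the surface protein tetherin that holds virus particles back, stood at 305 CPM in 57 irradiated and 44.0 CPM in 6 control cells (2.79, 2.00 to 3.72). Without mixed barcodes it had 203 UMIs in 50 irradiated and 2 UMIs in 2 control cells (3.87, 2.00 to 6.92). Isg15, a ubiquitin-like modifier, stood at 190 and 57.5 CPM (1.73, 1.01 to 2.53), in 43 of 101 and 9 of 29 cells. Irf7, the factor that amplifies the interferon response, stood at 85.6 and 23.7 CPM (1.86, 0.76 to 3.21), in 46 and 4 cells. The nucleic acid sensor genes Zbp1 and Ifi203 stood at 1.58 and 1.97, and Eif2ak2, the kinase PKR that halts translation, at 1.35. Ifi27l2a had the largest ratio of the list (3.55, 2.77 to 4.47), with 75.6% of its irradiated UMIs in 1 cell.

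**Figure D4:**
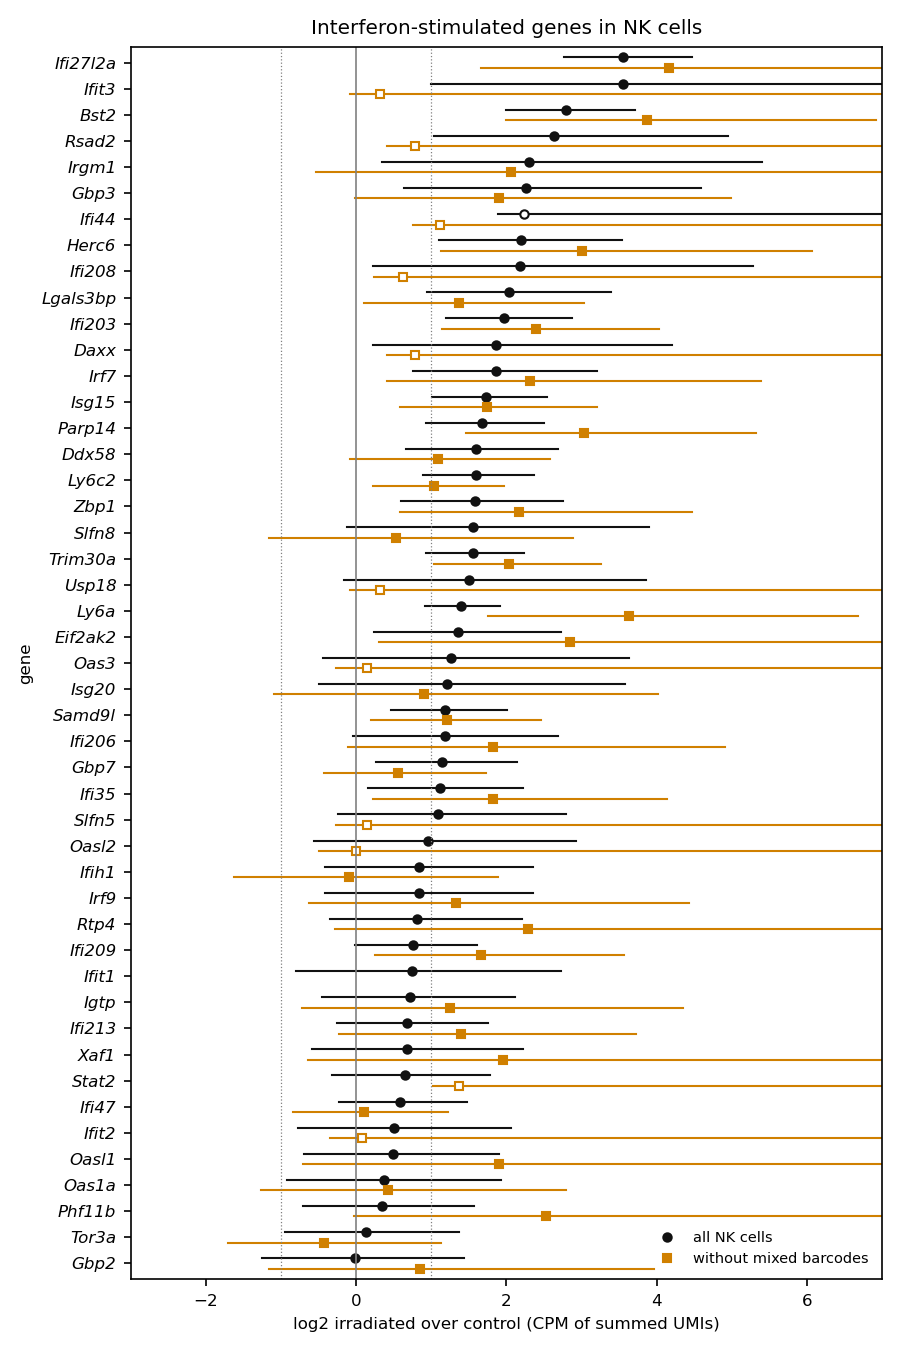
Log2 ratio of irradiated over control CPM for 47 measured interferon-stimulated genes in NK cells, with counting intervals, for all NK cells (black circles) and without mixed barcodes (orange squares). Open symbols had no control UMI, and their ratio is a bound taken against 3 UMIs; intervals that run past the axis are not closed. Of the genes plotted, 24 are at least 2-fold higher with an interval above 0 when all cells are used.

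The promoters of 3 of these genes show the interferon-stimulated element. Isg15, Bst2 and Ifi203 passed the size rule in NK cells with and without mixed barcodes, and each held the motif GAAANNGAAA in the RefSeq promoter window of 250 bases before to 50 after the gene start (build GRCm38.p6, all on the minus strand). The windows are chr4:156200769-156201068 for Isg15, chr8:71537423-71537722 for Bst2 and chr1:173942443-173942742 for Ifi203. Capitals mark the match or overlapping matches, which number 3 in Isg15, 2 in Bst2 and 1 in Ifi203.
Isg15: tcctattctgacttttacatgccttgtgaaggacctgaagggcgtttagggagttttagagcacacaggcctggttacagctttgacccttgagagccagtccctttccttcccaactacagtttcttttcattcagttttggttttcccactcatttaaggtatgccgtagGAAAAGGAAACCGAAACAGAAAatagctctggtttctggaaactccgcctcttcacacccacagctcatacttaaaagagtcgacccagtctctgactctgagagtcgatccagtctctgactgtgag
Bst2: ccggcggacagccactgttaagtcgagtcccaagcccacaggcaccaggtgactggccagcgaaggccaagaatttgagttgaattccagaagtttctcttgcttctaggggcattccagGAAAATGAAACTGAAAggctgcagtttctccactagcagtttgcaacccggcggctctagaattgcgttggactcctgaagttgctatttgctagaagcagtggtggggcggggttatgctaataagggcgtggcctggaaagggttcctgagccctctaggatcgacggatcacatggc
Ifi203: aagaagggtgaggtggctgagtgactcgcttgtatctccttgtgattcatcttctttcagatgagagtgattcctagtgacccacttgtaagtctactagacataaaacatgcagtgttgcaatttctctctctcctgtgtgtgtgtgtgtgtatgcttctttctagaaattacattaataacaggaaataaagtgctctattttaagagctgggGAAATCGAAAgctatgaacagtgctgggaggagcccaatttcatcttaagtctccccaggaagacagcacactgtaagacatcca
The motif, searched as GAAANNGAAA and as its reverse complement TTTCNNTTTC, occurred in 3.99% of 27025 genes with a window. It occurred in 24 of 40 measured interferon genes with a window. Of those past the size rule with and without mixed barcodes it occurred in 5 of 12, and of those measured but not past the rule in 12 of 20. A match describes the window and no match says nothing of a factor.

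Gamma delta T cells gave a less steady interferon picture. In irradiated gamma delta cells 6 of 14 measured interferon genes were higher and 0 lower (median 0.40), and without mixed barcodes 1 of 7 was higher and 1 lower (median -0.50). Over all measured genes of gamma delta cells 9.63% were higher and 6.86% lower, and without mixed barcodes 8.96% and 8.33%. Without mixed barcodes 1 irradiated cell held 33.7% of the irradiated UMIs these ratios rest on. Isg15 stood at 451 CPM in 12 of 17 irradiated and 70.7 CPM in 8 of 26 control cells (2.67, 1.90 to 3.53), with 52.0% of the irradiated UMIs in 1 cell, and at 1.42 (0.50 to 2.43) without mixed barcodes. Bst2 had 46 and 39 UMIs (0.27). Per cell the summed list had a median of 18.4 UMIs per 10000 in irradiated and 16.2 in control gamma delta cells, with ranges of 3.32 to 153 and 4.12 to 122. Alpha beta type T cells, set beside them, had 44 of 49 genes higher and 0 lower (median 1.94), against 5.88% of 8432 genes higher and 8.38% lower. Without mixed barcodes they had 36 of 48 higher (median 1.52), against 4.11% of 6514 genes higher and 3.1% lower. Whether the 3 lymphocyte kinds differed in this was not tested.

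**Figure D5:**
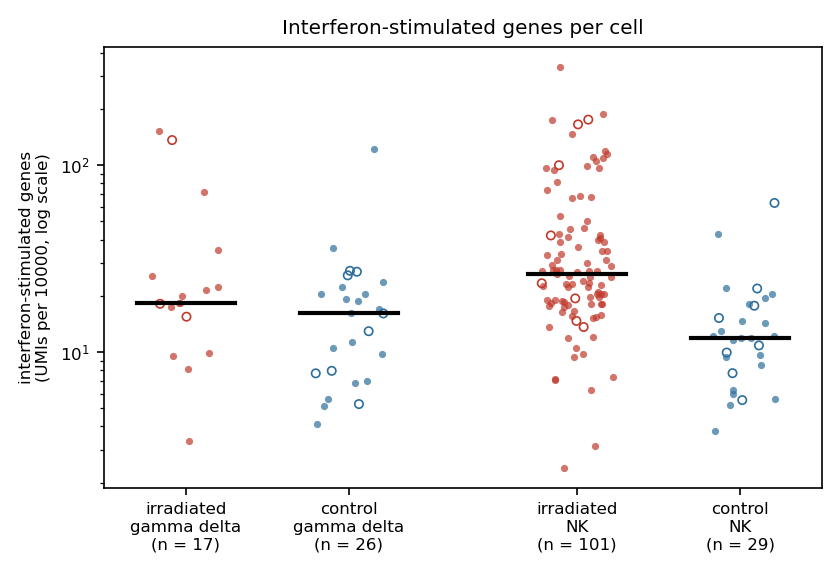
UMIs per 10000 of the interferon-stimulated gene list in each gamma delta T and NK cell, irradiated left of control, on a log axis; bars are medians and open circles are mixed barcodes. The NK medians are 26.1 irradiated and 11.9 control, and the gamma delta medians 18.4 and 16.2.

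Of 17 measured MHC class I genes, which present peptides and are read by NK receptors, 6 were higher and 0 lower in irradiated NK cells (median 0.61), against 6.16% of all genes higher. B2m, the chain shared by all class I molecules, stood at 2327 CPM in irradiated and 1150 CPM in control NK cells (1.02, 0.85 to 1.19), and at 0.49 (0.28 to 0.70) without mixed barcodes. Tap1, which loads peptides, and Nlrc5, the regulator of class I genes, stood at 1.03 and 1.79. Without mixed barcodes H2-T22 (1.69, 0.69 to 2.93) and H2-T23 (1.08, 0.37 to 1.88), nonclassical class I genes, were the 2 that stayed higher, against 2.97% of all genes. H2-T23 encodes Qa-1, the ligand of the receptor NKG2A, and stood at 249 CPM in irradiated and 108 CPM in control NK cells over all barcodes. In gamma delta cells 2 of 16 class I genes were higher (median 0.59), near the 9.63% of all genes, and 0 of 9 without mixed barcodes, against 8.96%.

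Radiation is known to induce p53 target genes. Of 22 measured in NK cells 2 were higher and 2 lower, with a median of 0.03, shares near the 6.16% higher and 6.83% lower over all measured genes. Cdkn1a, which encodes p21 and stops the cell cycle, had 191 CPM in irradiated and 139 CPM in control NK cells (0.46, -0.02 to 0.98). Mdm2, the p53 antagonist, was at 0.38 (-0.41 to 1.25), Ccng1 at 0.51 (-0.77 to 2.06) and Bax, a promoter of cell death, at -0.17 (-0.71 to 0.40). In gamma delta cells 5 of 14 were higher and 0 lower (median 0.73), and 2 of 6 were higher without mixed barcodes. The shares over all measured genes of gamma delta cells were 9.63% higher and 6.86% lower, and 8.96% higher without mixed barcodes. Gadd45a, a stress gene of the DNA damage response, was higher in both sets (1.35, 0.11 to 2.74), with 85.0% of its irradiated UMIs in 1 cell. Cdkn1a had 77 UMIs in 13 of 17 irradiated and 44 UMIs in 16 of 26 control gamma delta cells (0.84), under the 2-fold limit.

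Taken as 1 population, gamma delta and NK cells had 6.25% of 8847 measured genes higher and 7.1% lower in the irradiated library, and without mixed barcodes 4.32% and 5.28% of 6786. These ratios include the change in makeup, since gamma delta cells were 17 of 118 irradiated and 26 of 55 control members. Interferon-stimulated genes had 31 of 48 higher and 0 lower (median 1.26), and 22 of 47 without mixed barcodes. Of 18 interleukin-17 program genes 13 were lower and 0 higher (median -1.24), and of 16 cytotoxic genes 7 were higher and 0 lower (median 0.99). Without mixed barcodes 12 of 15 and 2 of 15 passed.

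Dividing cells were present in both libraries. After thinning to 2000 UMIs, 50 of 115 irradiated members (43.5%) and 23 of 51 control members (45.1%) had at least 2 UMIs over 30 mitosis genes, with 3 and 4 cells left out (log2 ratio of shares -0.05, -0.79 to 0.73). Unthinned, the shares were 82.2% and 78.2%. By kind, the thinned shares were 43.9% and 31.0% in NK cells and 23.5% and 45.5% in gamma delta cells, and the intervals overlapped within each kind. Each kind and the whole were thinned in separate random draws, so the shares by kind do not add up to those of all members. Without mixed barcodes the gamma delta shares were 28.6% and 26.7%. In NK cells 1 of 29 measured mitosis genes was higher and 0 lower (median 0.30), against 6.16% of all measured genes higher and 6.83% lower. Of 28 DNA replication genes 10 were higher (median 0.93). Without mixed barcodes 1 of 21 was higher (Tyms, which makes thymidylate for DNA), against 2.97% of all measured genes. In gamma delta cells 11 of 13 mitosis genes were lower (median -2.11), a count that rested on a few control cells. Without mixed barcodes 4 of 6 were lower. Over all measured genes of gamma delta cells 6.86% were lower, and 8.33% without mixed barcodes. Cdc20, a trigger of chromosome separation, had 2 UMIs in 2 irradiated and 32 UMIs in 5 control cells, 84.4% of them in 1 cell, and Birc5, which encodes survivin, had 0 UMIs and 32 UMIs in 4 control cells. Phase cannot be read from these genes alone.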

How the data were processed

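Per the labels, the libraries are 10x Genomics 3' v3. The authors deposited unnormalised counts of UMIs for each gene in each barcode, made with Cell Ranger 5 on mm10 per the submitters' processing notes and 5.0.1 per the file headers. Total UMIs were 111753092 in the irradiated library (8302 barcodes, 7190 kept) and 180080740 in the control library (11369 barcodes, 9240 kept). From these, UMIs were summed per kind of cell and library and scaled to CPM by the summed UMIs. Ratios carry exact conditional Poisson intervals and shares exact binomial ones. A gene without UMIs in 1 group was set to 3 UMIs over the group, as a bound. Ratios were checked on simulated summed Poisson counts without spread between cells, which covers the calculation only. Members and all 38 gene lists were chosen with earlier results of these data known. Named genes were up to 4 per list with at least 20 UMIs and the widest ratio, the 12 highest and lowest by interval bound in each kind, the receptor genes and 10 fixed effector genes. Others were chosen after values were seen: Bst2, Isg15, Irf7 and similar familiar members. Doublets were not removed by the rule. A Scrublet score limit of 0.25 (scanpy 1.11.5) and leaving out mixed barcodes were alternatives. Python 3.11.15 with numpy 2.4.6, scipy 1.17.1 and pandas 2.3.3 was used. A few single genes are not reported here.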

Additional observations from a re-analysis of the deposited data

How the results depend on the processing

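No paired analysis was possible because each group is 1 library. The NK share and the NK interferon median kept their direction, and the interval of the mitosis share included equality, under every alternative run (other mitochondrial, myeloid, Trdc and CD3 limits, Scrublet scores, thinning, equal weight per cell, other UMI minimums, without the deepest cell). The NK interferon median ran from 1.16 to 1.66. Among barcodes with a Ptprc UMI the log2 share ratio was 1.48 for NK cells and 0.89 for both kinds together, against 2.16 and 1.46 over all kept barcodes. The gamma delta interferon median of 0.40 moved to 1.96 with at least 2 Trdc UMIs, 3.95 without cells with alpha beta receptor UMIs, 1.05 with a minimum of 10 UMIs and -0.50 without mixed barcodes. The value of 3.95 rests on 5 genes from 5 irradiated and 9 control cells. The value of 1.96 rests on 12 genes from 15 and 21 cells, and that of -0.50 on 7 genes from 14 and 18 cells. Genes past the size rule numbered 721 in gamma delta cells and moved to 276 without cells with alpha beta receptor UMIs, 238 with at least 50 UMIs and 436 without mixed barcodes. In NK cells 1012 genes moved to 567 with at least 50 UMIs and 313 without mixed barcodes, which also test fewer genes. The 17 irradiated and 26 control gamma delta cells limit every ratio in that kind.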

Other observations

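Genes that NK and gamma delta cells respond to differed in some of the surrounding cell types. In fibroblast type cells Cxcl10 stood at 179 CPM in the irradiated and 28.4 CPM in the control library (log2 ratio 2.65, 2.57 to 2.74), and Cxcl9, another ligand of CXCR3, at 47.2 and 5.55 CPM (3.09, 2.90 to 3.28). Il15, the survival cytokine of NK cells, stood at 8.98 and 3.12 CPM (1.53, 1.20 to 1.85), and H2-T23 at 92.5 and 14.7 CPM (2.65, 2.53 to 2.77). Ligands of NKG2D were not higher there: Raet1e stood at 0.16, Ulbp1 at -0.38 and H60c at -0.75. In C1q macrophage type cells Cxcl10 stood at 1.62 (1.52 to 1.72), Cxcl9 at 1.64 (1.18 to 2.11), H2-T23 at 1.43 (1.33 to 1.53) and Il15 at 0.35 (0.17 to 0.54). There Il1b stood at 1179 and 490 CPM (1.27, 1.22 to 1.31), while Il18 stood at 45.6 and 70.4 CPM (-0.63). Il23a, a chain of interleukin-23, stood at 4.44 and 1.17 CPM (1.92, 1.02 to 2.95). It had 64 UMIs in 28 of 1233 irradiated and 12 UMIs in 8 of 1042 control macrophage type cells. Keratinocyte type cells gave other values: Cxcl10 stood at 1.20 (1.03 to 1.37) and H2-T23 at 1.29 (1.15 to 1.43), but Il15 at 0.10 (-0.37 to 0.56), Cxcl9 at -0.66 (-1.83 to 0.43), Il23a at -0.28 (-1.05 to 0.47) and Il1b at 0.61 (0.36 to 0.86).

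Trdc was also counted outside lymphocytes. Fibroblast type cells, which have no Ptprc UMI by definition, held 129 Trdc UMIs in 570 irradiated cells and 627 in 2309 control cells (8.58 and 10.5 CPM), with 1 and 5 Cd3e UMIs. Keratinocyte type cells, of like depth, held 0 and 4 Trdc UMIs. Where the Trdc UMIs of fibroblast type cells come from was not tested.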
